A study of Mus musculus with 2 samples.

Results

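The cell cycle and DNA replication genes followed here were 43 mouse genes, listed by symbol and role and not by a threshold on their values, and taken from the 20278 genes that have a symbol on the array. They comprised 10 genes of mitosis, 5 genes of cyclin-dependent kinases (CDKs) counting their activator *Cdc25a*, 8 cyclins, 6 subunits of the MCM helicase, 5 genes of replication and nucleotide supply, 6 genes of the E2F and pocket protein families, and 3 CDK inhibitors. The array carried 56 probes for them. Of the 43 genes, 38 had at least 1 probe well above background on at least 1 array, that is, flagged so by the scanner software in most of its spots. Signals of 35 genes passed on both arrays, those of 3 in the knockout pool only (*Top2a*, *Bub1b* and *Cdk6*), and those of 0 in the control pool only. The probes of the other 5 genes (*Bub1*, *Aurkb*, *Kif11*, *Cdk1* and *Ccne2*) were not well above background on either array. Of all 13842 genes passing on at least 1 array, 472 passed on the knockout array alone and 324 on the control array alone. Detection in the knockout pool alone was thus the more common kind over all genes as well.

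The knockout pool held left ventricular RNA of 6 male heart-specific *Bmal1* knockout mice (*H-Bmal1*-/-) aged 12 weeks. These mice carried a floxed *Bmal1* gene and a Cre recombinase driven by the αMHC promoter, which is active in cardiomyocytes, so that the other cell types of the ventricle should keep the gene. The control pool held left ventricular RNA of 6 male littermates of the same age, with the floxed gene and without Cre, which the sample labels call wildtype, and no group carried Cre alone. Ventricles were taken at ZT 2 (ZT 0 is lights on), and each pool was labeled with Cy3 and hybridized to 1 Agilent SurePrint G3 Mouse array. With 1 array per genotype, no difference below has a replicate check, and no test between genotypes was made.

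Cells divide by copying their DNA once and then separating the copies. In G1, D-type cyclins with CDK4 and CDK6 phosphorylate the pocket proteins (RB1 and its relatives p107 and p130), which releases E2F transcription factors that drive the genes of DNA synthesis. Cyclin E and cyclin A with CDK2 act at the start of and through S phase, MCM proteins unwind the DNA at origins, and cyclin B with CDK1 brings the cell into mitosis. Most cardiomyocytes of the adult mouse have left the cycle, and transcripts of S phase and mitosis in adult ventricle are usually scarce. The BMAL1:CLOCK heterodimer binds E-box elements, and some cell cycle genes, *Wee1* among them, are known as clock targets in other tissues.

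*Bmal1*, listed under its official symbol *Arntl*, gave a relative signal of 1.73 in the knockout pool and 3.0 in the control pool, a log2 ratio of -0.80 from 1 probe. Relative signal means the background-corrected signal divided by the 75th percentile of the same array, and every log2 ratio is the knockout pool minus the control pool. Where this probe lies with respect to the deleted exon was not looked up, so the value does not test the deletion. On the knockout array 29672 and on the control array 29288 of 59305 noncontrol spots stood well above background, and no noncontrol spot was saturated on either array. Before scaling, the 75th percentile of the signal was 190 in the knockout pool and 171 in the control pool, a shift of 0.15 on the log2 scale. Among 13842 genes measured, the median log2 ratio was -0.01 and the median size of a log2 ratio was 0.19. Between the repeated spots of 245 probes, the SD of the log2 ratio had a median of 0.07. Each signal also carries an error from the scanner software's error model, and the ± beside a log2 ratio below is that model error, which covers the array and not the animals.

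Promoters of the members were searched for motifs of cell cycle and clock regulators in the RefSeq promoter table of build GRCm38.p6 (250 bases before to 50 bases after the transcript start). The table matched 35 of the 43 members with 40 promoters, and 8 members had no entry used here. These 8 were *Ccna2*, *Ccnd1*, *Ccnd2*, *Ccne2*, *Aurkb*, *Mcm4*, *Rb1* and *Cdkn1c*. More than a single promoter was entered for *Ccnd3*, *Mcm7*, *E2f2*, *E2f3* and *Cdkn2c*, so the counts by role are of promoters and not of genes. Matches are letters in a window, read on both strands, and are not evidence of binding. E2F sites were searched as TTTCCCGC, TTTGGCGC, TTTCGCGC and TTTGCCGC, the cell cycle homology region (CHR) as TTTGAA, the CCAAT box as CCAAT and the E-box as CACGTG. The sequences below were chosen as examples that hold CHR and CCAAT letters (*Top2a*, *Mki67*, *Aurka* and *Ccnb2*), E2F letters (*Mcm6*) or several E-boxes (*Cdk4*), and do not stand for every role, with matched motifs in capitals (a match on the opposite strand shows as its complement, such as ATTGG for CCAAT). *Top2a* (chr11:99024140-99024439), *Mki67* (chr7:135716330-135716629), *Aurka* (chr2:172370521-172370820), *Ccnb2* (chr9:70421505-70421804) and *Mcm6* (chr1:128359656-128359955) lie on the minus strand and *Cdk4* (chr10:127063285-127063584) on the plus strand, and all are written 5′ to 3′ in the direction of the gene.
Top2a: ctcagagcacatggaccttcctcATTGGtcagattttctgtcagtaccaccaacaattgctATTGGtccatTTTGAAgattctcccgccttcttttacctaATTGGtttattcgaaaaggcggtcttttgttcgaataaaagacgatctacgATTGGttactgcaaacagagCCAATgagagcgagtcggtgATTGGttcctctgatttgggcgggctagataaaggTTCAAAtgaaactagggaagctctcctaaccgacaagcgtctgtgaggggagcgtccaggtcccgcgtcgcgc
Mki67: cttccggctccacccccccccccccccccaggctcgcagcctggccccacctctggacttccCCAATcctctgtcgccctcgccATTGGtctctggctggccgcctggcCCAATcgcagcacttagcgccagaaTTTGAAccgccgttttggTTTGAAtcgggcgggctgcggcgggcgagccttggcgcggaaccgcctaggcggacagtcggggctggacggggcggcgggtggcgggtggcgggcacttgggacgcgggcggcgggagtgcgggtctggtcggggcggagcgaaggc
Aurka: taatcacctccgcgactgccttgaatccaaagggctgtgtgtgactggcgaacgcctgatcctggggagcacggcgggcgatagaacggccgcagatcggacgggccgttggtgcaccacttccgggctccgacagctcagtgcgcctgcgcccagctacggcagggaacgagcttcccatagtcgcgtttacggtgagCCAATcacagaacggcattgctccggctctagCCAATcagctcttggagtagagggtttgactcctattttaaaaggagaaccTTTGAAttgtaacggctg
Ccnb2: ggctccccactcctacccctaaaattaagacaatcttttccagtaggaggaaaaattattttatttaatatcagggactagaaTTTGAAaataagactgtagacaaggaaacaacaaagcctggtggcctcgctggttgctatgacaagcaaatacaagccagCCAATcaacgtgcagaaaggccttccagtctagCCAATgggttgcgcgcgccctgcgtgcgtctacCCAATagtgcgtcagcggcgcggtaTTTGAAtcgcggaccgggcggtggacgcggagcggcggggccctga
Mcm6: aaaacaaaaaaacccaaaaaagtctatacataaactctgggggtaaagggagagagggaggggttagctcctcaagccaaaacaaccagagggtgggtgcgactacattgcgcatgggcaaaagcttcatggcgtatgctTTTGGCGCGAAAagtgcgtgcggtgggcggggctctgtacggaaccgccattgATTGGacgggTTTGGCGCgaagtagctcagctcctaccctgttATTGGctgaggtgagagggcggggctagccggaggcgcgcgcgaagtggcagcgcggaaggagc
Cdk4: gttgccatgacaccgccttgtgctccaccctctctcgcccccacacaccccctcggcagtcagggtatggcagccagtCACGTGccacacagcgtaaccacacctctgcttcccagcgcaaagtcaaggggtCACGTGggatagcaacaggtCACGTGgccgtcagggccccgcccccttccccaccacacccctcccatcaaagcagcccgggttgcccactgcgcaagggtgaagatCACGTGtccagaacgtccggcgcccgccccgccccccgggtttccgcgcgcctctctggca

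The printed *Top2a*, *Mki67*, *Aurka* and *Ccnb2* sequences were chosen for their CHR and CCAAT letters, so the matches in them follow from that choice. *Top2a* held 2 CHR and 6 CCAAT matches, *Mki67* held 2 and 3, *Aurka* held 1 and 2, and the cyclin gene *Ccnb2* held 2 and 3. Over the whole role, 7 of 9 promoters of mitosis genes held a CHR match (77.8%) and 8 of 9 a CCAAT match (88.9%), against 17.9% and 37.4% of all 32851 promoters in the table. CCAAT letters were not limited to mitosis genes, being in 6 of 6 MCM promoters (none of them of *Mcm4*) and in 28 of 40 member promoters (70.0%). Among the 5 cyclin promoters only that of *Ccnb2* held a CHR match. None of the 9 mitosis promoters held an E2F match, and neither did any of the 5 cyclin, 5 replication and nucleotide or 3 CDK inhibitor promoters. E2F letters lay in 4 of 6 promoters of MCM genes (66.7%), 3 of 5 promoters of the CDK and *Cdc25a* group (not *Cdk4*) and 3 of 7 promoters of the E2F and pocket protein genes, against 2.26% of all promoters. *Mcm6* held 3 E2F matches, of which 2 overlap on opposite strands in the longer run of capitals. The E-box was found in 5 of 40 member promoters (12.5%), against 7.15% of all promoters. *Cdk4* alone held 4 of these E-boxes, starting at positions -172, -118, -98 and -11, and *Cdk6*, *Tyms*, *E2f3* and *Cdkn2c* held 1 each. No match of any of the 4 motifs was found in the *Birc5* promoter, which says only that these letters are not in that window.

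**Figure D1:**
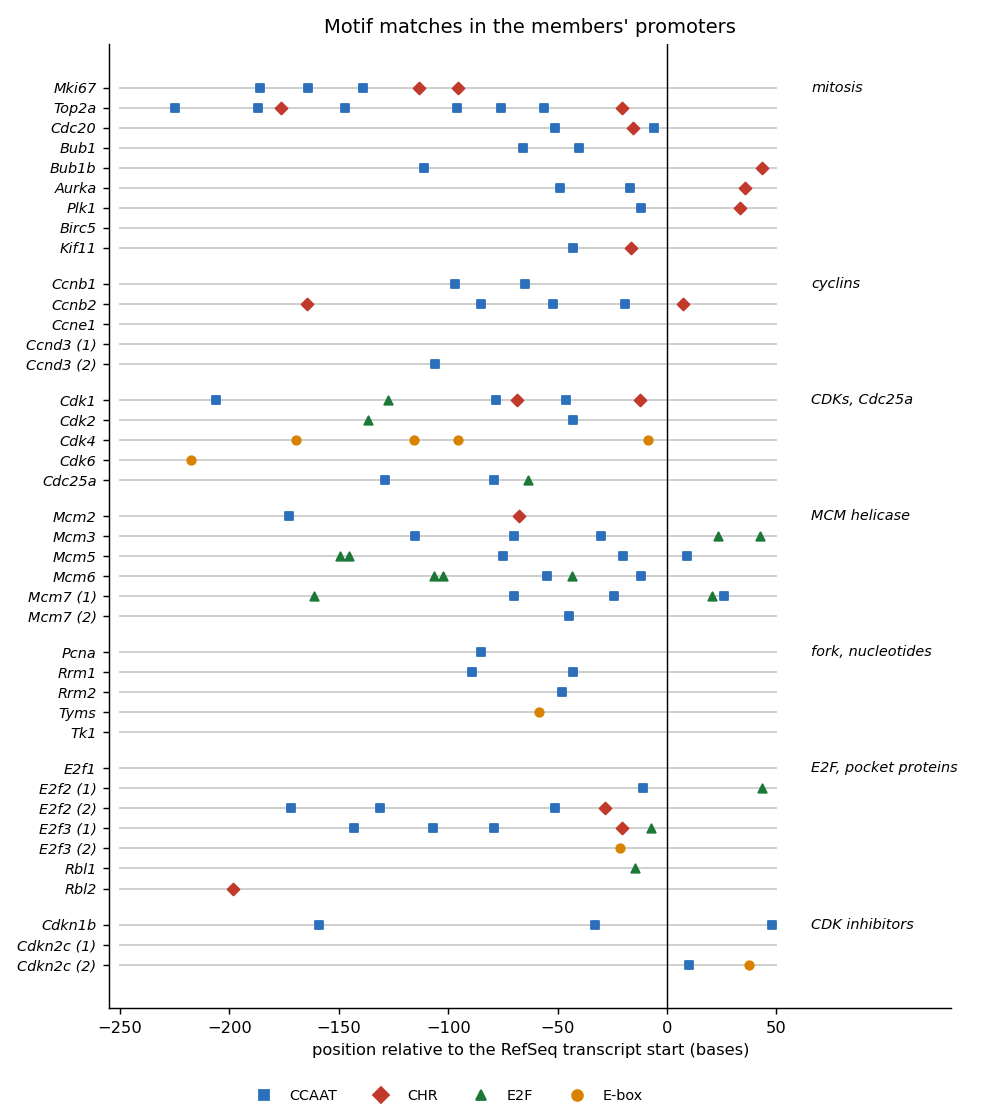
Positions of motif matches (markers by motif) in the 40 RefSeq promoters of 35 members, 1 row per promoter grouped by role, with the distance from the transcript start in bases on the x axis. CHR matches gather in the mitosis rows (7 of 9), E2F matches in the MCM rows (4 of 6), and the *Cdk4* row carries 4 E-box matches.

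Across the 38 measured members the ventricles of the 2 pools differed little. Log2 ratios were above 0 for 21 members and below 0 for 17, with a median of 0.12, against a median of -0.01 over all measured genes. At least 1.5-fold higher in the knockout pool were 3 members (*Top2a*, *Birc5* and *Ccna2*), or 7.89% of the 38, where 6.16% of all measured genes passed the same size. At least 1.5-fold lower were 0 members, where 5.85% of all measured genes passed. These shares are near the background, so that the counts do not set the members apart from other genes. Just inside the 1.5-fold limit was *Ccna2* at 1.52-fold, and just outside were *Ccne1* at 1.48-fold and *Aurka* at 1.46-fold. Over the 35 members seen on both arrays, 2 were at least 1.5-fold higher (*Birc5* and *Ccna2*) and 0 lower, where 5.11% of all genes seen on both passed on the higher side and 4.51% on the lower side. With only probes detected on both arrays, *Birc5* had a log2 ratio of 0.47 and 1 member, *Ccna2*, passed, where 4.74% of all genes passed on the higher side. Measured by the error model, 5 of the 35 members seen on both arrays were higher by more than 2 model errors (*Mki67*, *Aurka*, *Birc5*, *Ccna2* and *Ccne1*) and 1 was lower (*Tk1*), where 9.33% of all genes seen on both arrays passed in each direction. The ratios of 15 of the 35 were within 1 model error of 0.

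**Figure D2:**
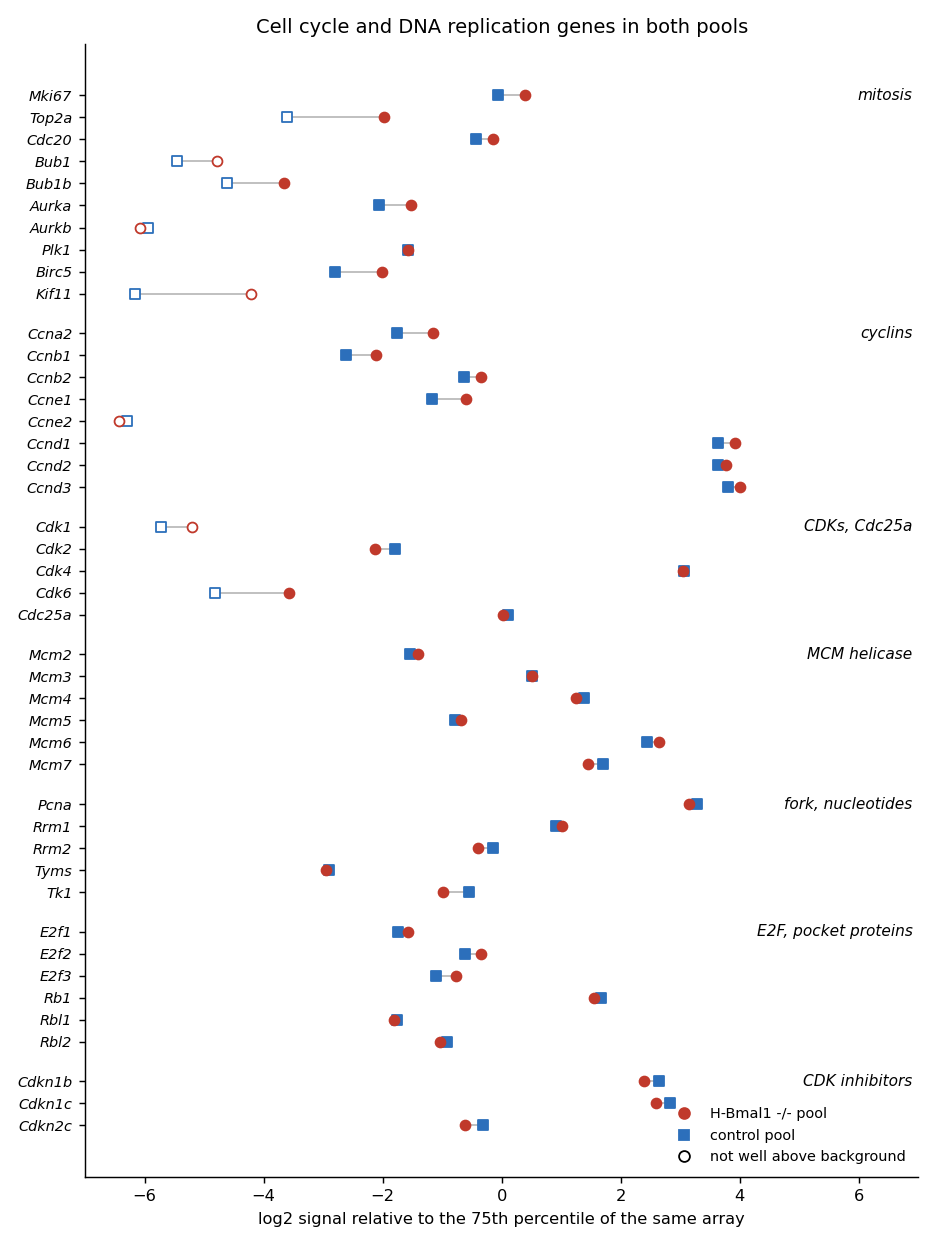
Log2 signal relative to the 75th percentile of the same array (x axis) for each of the 43 members, with the *H-Bmal1*-/- pool as circles and the control pool as squares, 1 array each. Open symbols mark a pool's signal that was not well above background, and the members detected on neither array are open in both pools. Most pairs of symbols nearly coincide, and for *Top2a*, *Bub1b* and *Cdk6* only the control value was not well above background.

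All 3 members past 1.5-fold lay among the dim ones. Of 16 measured members with a mean signal under 100, 11 were above 0 and 3 were at least 1.5-fold higher (18.8%), whereas in that range 10.7% of all measured genes passed the limit on the higher side and 11.6% on the lower side. Among the 13 of these 16 that were seen on both arrays, 8 were above 0, with a median log2 ratio of 0.18. Of the 22 members with a mean signal of 100 or more, 10 were above 0, 0 were past 1.5-fold in either direction, and the median was -0.02. In that brighter range 3.87% of all measured genes passed it on the higher side and 2.97% on the lower side.

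Genes of mitosis stood mostly on the higher side, with 6 of 7 measured members above 0 and a median log2 ratio of 0.54, or 0.46 over the 5 seen on both arrays. *Mki67* encodes Ki-67, the chromosome surface protein used to mark cycling cells. Its relative signal was 1.32 in the knockout pool and 0.959 in the control pool, a log2 ratio of 0.46 ± 0.15, and its probes gave 0.44 and 0.47. *Top2a* encodes topoisomerase IIα, which untangles replicated DNA before the chromosomes part. Its relative signal was 0.254 in the knockout pool and 0.0819 in the control pool, where it was not well above background. The measured ratio was 3.09-fold, which is not a lower bound, since the undetected control signal itself was used. The difference rests on 1 dim probe, with signals of 48.2 in the knockout pool and 14.0 in the control pool, and a model error of 0.37 on the log2 scale. *Birc5* encodes survivin, a subunit of the chromosomal passenger complex. Its relative signal was 0.249 in the knockout pool and 0.144 in the control pool (log2 ratio 0.79 ± 0.26), but its 3 probes disagreed in size, at 1.41, 0.52 and 0.42, and the first of these was not detected in the control pool.

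*Aurka*, the Aurora kinase of spindle poles, had a relative signal of 0.349 in the knockout pool and 0.240 in the control pool (log2 ratio 0.54 ± 0.23). *Cdc20*, an activator of the anaphase-promoting complex, had 0.902 in the knockout pool and 0.739 in the control pool (0.29 ± 0.21), a ratio little above its model error. *Plk1*, a kinase needed at several steps of mitosis, did not share the direction, with 0.335 in the knockout pool and 0.337 in the control pool (-0.01 ± 0.22). *Bub1b* encodes the spindle checkpoint protein BUBR1. It was detected in the knockout pool alone, with a signal of 15.1 there and 6.95 in the control pool. Set against the control array's lowest detected probe signal, *Bub1b* was at least 1.23-fold higher in the knockout pool. That limit depends on the background correction, since with the normexp model described below its log2 ratio was 0.07. The remaining genes of this role were too dim for a ratio. The probe of *Bub1*, a checkpoint kinase, averaged a signal of 6.93 in the knockout pool and 3.88 in the control pool over 9 spots, against a lowest detected probe signal of 11.1 on each array. *Kif11*, a spindle motor, gave 10.2 in the knockout pool and 2.40 in the control pool, and *Aurkb*, the kinase of the passenger complex, gave 2.81 in the knockout pool and 2.79 in the control pool, all below that level.

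**Figure D3:**
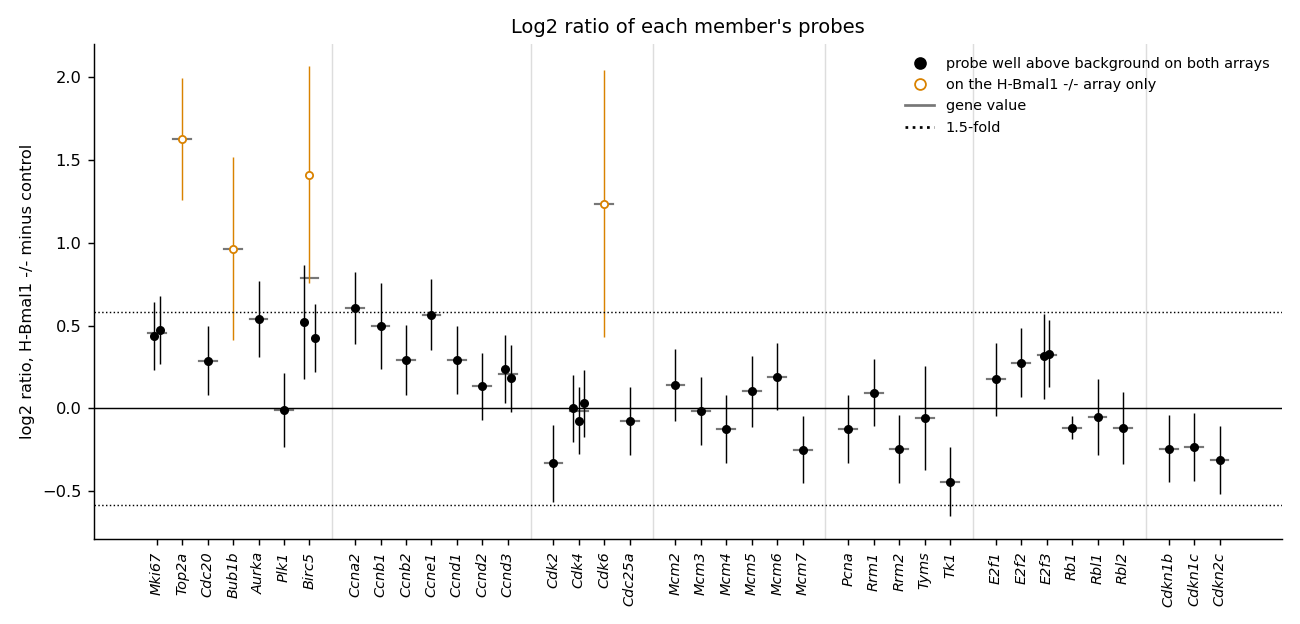
Log2 ratio of the *H-Bmal1*-/- pool minus the control pool (y axis) for every used probe of the 38 measured members, grouped by role on the x axis, with filled points for probes well above background on both arrays and open points for those in the *H-Bmal1*-/- pool only. Bars give the model error of 1 array pair, and the highest points belong to dim probes (*Top2a*, *Birc5*, *Cdk6*). Among the members, the cyclins all lie above 0 and the CDK inhibitors all lie below 0.

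Among the members, cyclins were the one role in which every measured gene was higher in the knockout pool, 7 of 7. Their median log2 ratio was 0.29 with a range of 0.13 to 0.61, where 48.4% of all measured genes were above 0. *Ccna2*, the cyclin of S phase and G2, had a relative signal of 0.449 in the knockout pool and 0.295 in the control pool (0.61 ± 0.22). *Ccnb1*, the main mitotic cyclin, had 0.230 in the knockout pool and 0.163 in the control pool (0.50 ± 0.26) from the 1 of its 3 probes that was detected. Its relative *Ccnb2* had 0.785 in the knockout pool and 0.641 in the control pool (0.29 ± 0.21). *Ccne1*, the cyclin of the G1 to S transition, had 0.658 in the knockout pool and 0.444 in the control pool (0.57 ± 0.21), again from 1 of 2 probes. Of these 4 cyclins, which act from the G1 to S transition to mitosis, only *Ccna2* passed 1.5-fold. *Ccne2* was not detected on either array, with signals of 2.21 in the knockout pool and 2.19 in the control pool. Of the cyclin genes outside the members, *Ccnh* was lower (-0.38 ± 0.21). *Ccng1* (0.24 ± 0.20), *Ccng2* (0.42 ± 0.24) and *Ccnf*, detected in the knockout pool alone, were higher.

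D-type cyclins, which respond to growth signals in G1, were bright and differed less. *Ccnd1* had a relative signal of 15.1 in the knockout pool and 12.3 in the control pool (0.29 ± 0.20), *Ccnd2* had 13.6 in the knockout pool and 12.4 in the control pool (0.13 ± 0.20), and *Ccnd3* had 16.1 in the knockout pool and 13.9 in the control pool (0.21 ± 0.14). All 3 were higher by 1.23-fold or less, and the ratio of *Ccnd2* was within its model error. Both probes of *Ccnd3* were above 0, at 0.24 and 0.18.

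The group of CDK genes and *Cdc25a* did not follow the cyclins, with 1 of 4 measured genes (*Cdk6*) above 0 and a median of -0.05. Over the 3 genes of this group seen on both arrays, 0 were above 0 and the median was -0.08. *Cdk4*, the G1 kinase whose promoter holds the 4 E-boxes printed above, had a relative signal of 8.26 in the knockout pool and 8.35 in the control pool (-0.02 ± 0.12), and its 3 probes lay between -0.07 and 0.03. *Cdk2*, the partner of cyclins E and A, had 0.228 in the knockout pool and 0.287 in the control pool (-0.33 ± 0.23). *Cdc25a*, a phosphatase that activates CDKs, had 1.02 in the knockout pool and 1.07 in the control pool (-0.08 ± 0.21). *Cdk6*, the relative of *Cdk4*, was seen in the knockout pool only, with a relative signal of 0.0840 there and 0.0357 in the control pool. Set against the control array's lowest detected probe signal it was at least 1.3-fold higher, but with the normexp model its log2 ratio was -0.06. All 3 probes of *Cdk1*, the mitotic kinase, were below detection, with signals of 7.17, 2.65 and 7.32 in the knockout pool and 2.76, 4.14 and 2.95 in the control pool.

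Subunits of the MCM2-7 helicase, which is loaded at origins before S phase, were split, 3 above and 3 below 0, with a median of 0.04 and 0 of 6 past 1.5-fold. *Mcm6* was the highest, with a relative signal of 6.21 in the knockout pool and 5.44 in the control pool (0.19 ± 0.20), and *Mcm7* the lowest, with 2.72 in the knockout pool and 3.23 in the control pool (-0.25 ± 0.20). Between them were *Mcm2* with 0.377 in the knockout pool and 0.342 in the control pool (0.14), *Mcm5* with 0.620 in the knockout pool and 0.578 in the control pool (0.10), *Mcm3* with 1.41 in the knockout pool and 1.43 in the control pool (-0.01), and *Mcm4* with 2.38 in the knockout pool and 2.59 in the control pool (-0.12). All of these but *Mcm7* were within 1 model error of 0, so the 6 subunits, which work as 1 complex, showed no shared direction at this precision.

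Replication and nucleotide genes leaned lower, 4 of 5, with a median of -0.13. *Tk1*, the thymidine kinase of S phase, had the lowest log2 ratio of all 38 measured members, with a relative signal of 0.505 in the knockout pool and 0.686 in the control pool (-0.44 ± 0.21). *Rrm2*, the S phase subunit of ribonucleotide reductase, had 0.760 in the knockout pool and 0.901 in the control pool (-0.24 ± 0.21), whereas *Rrm1*, its large subunit, had 2.02 in the knockout pool and 1.89 in the control pool (0.09 ± 0.20). *Pcna*, the sliding clamp of DNA polymerases, had 8.88 in the knockout pool and 9.69 in the control pool (-0.13 ± 0.20). *Tyms*, thymidylate synthase, had 0.129 in the knockout pool and 0.134 in the control pool (-0.06 ± 0.31). The ratios of *Pcna*, *Rrm1* and *Tyms* were within their model errors.

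The E2F genes among the members stood above 0, and the genes of the pocket proteins that bind E2F factors stood slightly below 0. Each pocket protein gene changed sign in at least 1 of the other ways of processing described below. Their highest values there were 0.03 for *Rb1*, 0.03 for *Rbl2* and 0.49 for *Rbl1*. *E2f3* had a relative signal of 0.584 in the knockout pool and 0.467 in the control pool (0.32 ± 0.16), with its probes at 0.31 and 0.33. *E2f2* had 0.786 in the knockout pool and 0.649 in the control pool (0.28 ± 0.21), and *E2f1* had 0.337 in the knockout pool and 0.298 in the control pool (0.18 ± 0.22). These 3 encode the activator E2Fs, and each differed by at most 1.25-fold. *Rb1*, the retinoblastoma protein gene, had 2.93 in the knockout pool and 3.18 in the control pool (-0.12 ± 0.07 over 9 spots). *Rbl2* (p130) had 0.485 in the knockout pool and 0.527 in the control pool (-0.12 ± 0.22), and *Rbl1* (p107) had 0.286 in the knockout pool and 0.297 in the control pool (-0.05 ± 0.23), both within the model error.

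The CDK inhibitors among the members were lower in the knockout pool, 3 of 3, and their median was -0.24. *Cdkn1b* (p27), an inhibitor kept high in resting cells, had a relative signal of 5.25 in the knockout pool and 6.21 in the control pool (-0.24 ± 0.20). *Cdkn1c* (p57), its imprinted relative, had 6.02 in the knockout pool and 7.08 in the control pool (-0.24 ± 0.20), and *Cdkn2c* (p18), an inhibitor of CDK4 and CDK6, had 0.649 in the knockout pool and 0.807 in the control pool (-0.31 ± 0.21). Each of these 3 was lower by 1.24-fold or less and by between 1 and 2 model errors. The direction did not extend to the *Cdkn* genes outside the members. Of those, *Cdkn1a*, *Cdkn2a* and *Cdkn2b* (values below) and *Cdkn2d* (0.30 ± 0.20) were above 0, and *Cdkn3* was at -0.05 ± 0.31.

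Further genes of the cycle came from 5 lists of 130 genes, of which 114 were measured. Of these, 63 were above and 51 below 0, with a median of 0.05, and the 1.5-fold limit was passed by 10 on the higher side (8.77%) and 6 on the lower side (5.26%), near the 6.16% and 5.85% of all measured genes. Over the 105 of them seen on both arrays, 6 passed on each side. The list of the mitotic spindle, kinetochore and cytokinesis had the highest median of the 5, 0.16 over 31 measured genes of 40, with 21 above and 10 below 0, and with 5 past 1.5-fold on the higher side and 2 on the lower side. *Cenpa*, the histone variant of centromeres, had a relative signal of 10.6 in the knockout pool and 5.41 in the control pool (log2 ratio 0.97 ± 0.20). *Tpx2*, an activator of Aurora A, had 0.204 in the knockout pool and 0.0976 in the control pool (1.06 ± 0.32). Subunits of the kinetochore's NDC80 complex went opposite ways, since *Spc25* had 2.02 in the knockout pool and 0.867 in the control pool (1.22 ± 0.21) but *Spc24* had 0.377 in the knockout pool and 0.765 in the control pool (-1.02 ± 0.21). The other higher genes were *Nusap1*, a spindle protein (0.59 ± 0.24), and *Cenpf*, a kinetochore protein seen in the knockout pool alone, at least 1.87-fold higher. Also low were *Ect2*, which organizes the cleavage furrow (-0.61 ± 0.25), and *Espl1*, the protease separase (-0.38 ± 0.39).

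The lists of S phase machinery had medians near 0. Beside their counts below, 6.16% of all measured genes passed 1.5-fold on the higher side and 5.85% on the lower side. For origin licensing and firing, 7 of 17 measured genes were above 0 and the median was -0.03, with 0 past 1.5-fold on the higher side and 2 on the lower side. These were *Gins1*, a subunit of the replicative helicase, with a relative signal of 0.615 in the knockout pool and 1.00 in the control pool (-0.71 ± 0.21), and *Orc3*, of the origin recognition complex, with a mean log2 ratio of -0.62. The probes of *Orc3* disagreed, since a dim one had 0.0940 in the knockout pool and 0.209 in the control pool (-1.15 ± 0.34) but a bright one had 6.38 in the knockout pool and 6.74 in the control pool (-0.08 ± 0.20). Next lowest was *Gmnn*, the licensing inhibitor geminin (-0.35 ± 0.20), and the highest genes of this list seen on both arrays were *Orc5* (0.24 ± 0.23), *Mcm10* (0.20 ± 0.25) and *Gins4* (0.19 ± 0.20). For the replication fork and nucleotide supply, 16 of 29 measured genes were above 0 and the median was 0.03, with 1 gene past 1.5-fold each way. The higher one was *Pole2*, a subunit of polymerase ε seen in the knockout pool alone, with a measured ratio of 1.52-fold (0.60 ± 0.40). The lower one was *Dut*, which keeps uracil out of DNA, with 1.15 in the knockout pool and 2.05 in the control pool (-0.83 ± 0.21). Other low genes of the fork were the polymerase subunits *Pole* (-0.39 ± 0.21) and *Pold1* (-0.35 ± 0.20), and high ones were *Pola2*, a subunit of polymerase α (0.54 ± 0.29), and *Uhrf1*, which maintains DNA methylation (0.48 ± 0.21).

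Of the other CDK regulators and G1 genes, 23 of 25 were measured, 13 above and 10 below 0, with a median of 0.06. At 1.5-fold, 4 passed on the higher side (17.4%) and 1 on the lower side (4.35%), where 6.16% and 5.85% of all measured genes passed. Over the 20 seen on both arrays, 2 passed on the higher side and 1 on the lower side, and the median was 0.02. *Cdkn1a* (p21), a CDK inhibitor induced by p53 and by stress, had probes that disagreed. Its bright probe, averaged over 10 spots, had a relative signal of 12.7 in the knockout pool and 2.63 in the control pool (2.27 ± 0.06), and its dim probe had 0.0829 in the knockout pool and 0.0784 in the control pool (0.08 ± 0.40), so that the mean of 1.18 stands for neither. *Cdkn2b* (p15) was at 0.64 ± 0.25, and *Cdkn2a*, whose locus encodes INK4A and ARF, at 0.48 ± 0.34. The other genes past 1.5-fold were seen in the knockout pool alone, namely *Cdc25c*, a phosphatase that activates CDK1 (at least 1.79-fold higher), and *E2f4*, a repressor E2F (at least 1.69-fold higher). The lowest were *E2f5*, a repressor E2F (-0.59 ± 0.25), *Ccnh*, a subunit of the CDK-activating kinase (-0.38 ± 0.21), and *Tfdp2*, a partner of E2F factors (-0.38 ± 0.14, with probes at -0.58 and -0.18). *Wee1*, the kinase that holds CDK1 inactive and was named above as a clock target, had 0.267 in the knockout pool and 0.304 in the control pool (-0.19 ± 0.23). In the anaphase-promoting complex, 6 of 14 measured genes were above 0 and the median was -0.03, with 0 past 1.5-fold in either direction. Its subunits spanned only -0.19 (*Anapc1*) to 0.18 (*Anapc7*), with *Anapc5* (-0.17) and *Anapc13* (-0.16) also low and *Cdc16* (0.12) and *Cdc27* (0.10) also high.

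**Figure D4:**
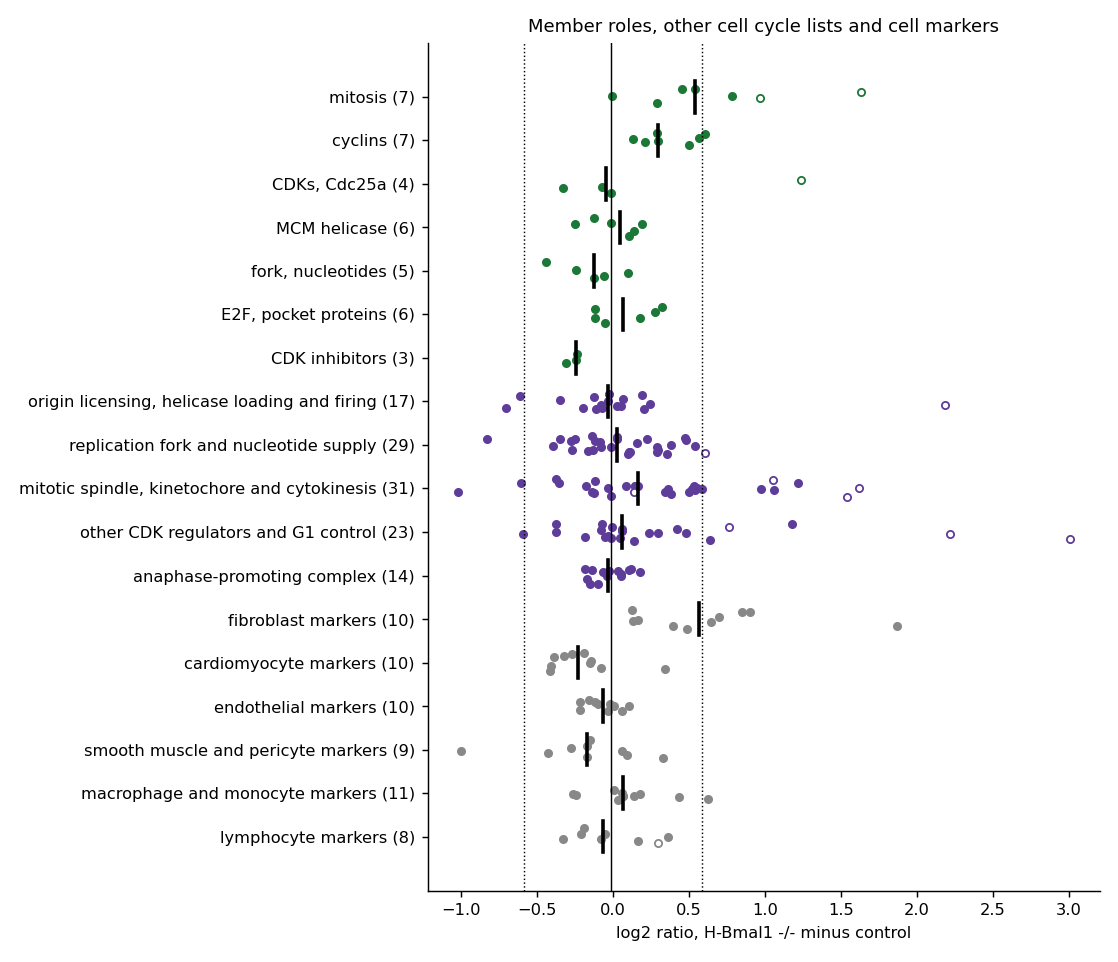
Log2 ratios of the *H-Bmal1*-/- pool minus the control pool (x axis) for the measured genes of each member role, each list of other cell cycle genes and each cell marker list, 1 point per gene, with the median of each list as a bar. Medians lie between -0.24 and 0.57, the highest being those of the fibroblast markers and the mitosis genes.

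Markers of the cells that a ventricle holds were read beside the members, since in these bulk samples fewer cells of a type and less RNA per cell cannot be told apart. All 10 cardiomyocyte markers were well above background on both arrays, as the labeled tissue asks, and 1 of 10 had a log2 ratio above 0, with a median of -0.23 and a summed relative signal of 7637 in the knockout pool and 8522 in the control pool. All 10 fibroblast markers were above 0, with a median of 0.57 and a summed relative signal of 451 in the knockout pool and 303 in the control pool, and 5 were at least 1.5-fold higher (*Postn*, *Col1a1*, *Lum*, *Col1a2* and *Col3a1*). The highest were *Postn*, made by activated fibroblasts, with 6.23 in the knockout pool and 1.70 in the control pool (1.87 ± 0.20), and *Col1a1*, a fibrillar collagen chain, with 20.6 in the knockout pool and 11.1 in the control pool (0.90 ± 0.20). Of the endothelial markers 3 of 10 were above 0 (median -0.07, sums of 224 in the knockout pool and 229 in the control pool), and of the smooth muscle and pericyte markers 3 of 9 (median -0.17, sums of 90.7 in the knockout pool and 103 in the control pool). Macrophage and monocyte markers were above 0 in 9 of 11 measured (median 0.06, sums of 44.4 in the knockout pool and 42.8 in the control pool), and lymphocyte markers in 3 of 8 measured (median -0.07, sums of 5.97 in the knockout pool and 6.77 in the control pool), with *Cd8a* and *Cd79a* not well above background on either array. The part of these cells in the values of the mitosis genes and cyclins was not tested.

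The direction of single members was read over 10 ways of processing, the one used above and 9 others. Log2 ratios of 27 of the 38 members kept their sign in every way that gave them a value, 20 above and 7 below 0. The 7 cyclins and 3 CDK inhibitors are among these 27. The split of 20 and 7 leans to the higher side by construction, since 1 of the ways, no scaling, adds 0.15 to every log2 ratio. *Top2a*, *Bub1b* and *Cdk6* have no value where a probe must be detected on both arrays, so that *Top2a* and *Bub1b* were read over 9 ways. The 11 members outside the 27 changed sign in at least 1 way, among them *Cdk6*, detected in the knockout pool alone. Those besides *Cdk6* lay between -0.13 and 0 as reported and were above 0 without scaling. Among them were *Plk1*, *Cdk4*, *Mcm3*, *Pcna* and the pocket protein genes *Rb1*, *Rbl1* and *Rbl2*. Dim genes depended on the background correction. With the normexp model and an offset of 50 in place of the software's own background subtraction, the log2 ratio was 0.39 for *Top2a*, 0.17 for *Birc5* and 0.34 for *Ccna2*, whereas *Mki67* had 0.36 and the CDK inhibitors had an unchanged median of -0.24. With it 0 members passed 1.5-fold, where 2.67% of all genes passed on the higher side and 1.79% on the lower side.

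**Figure D5:**
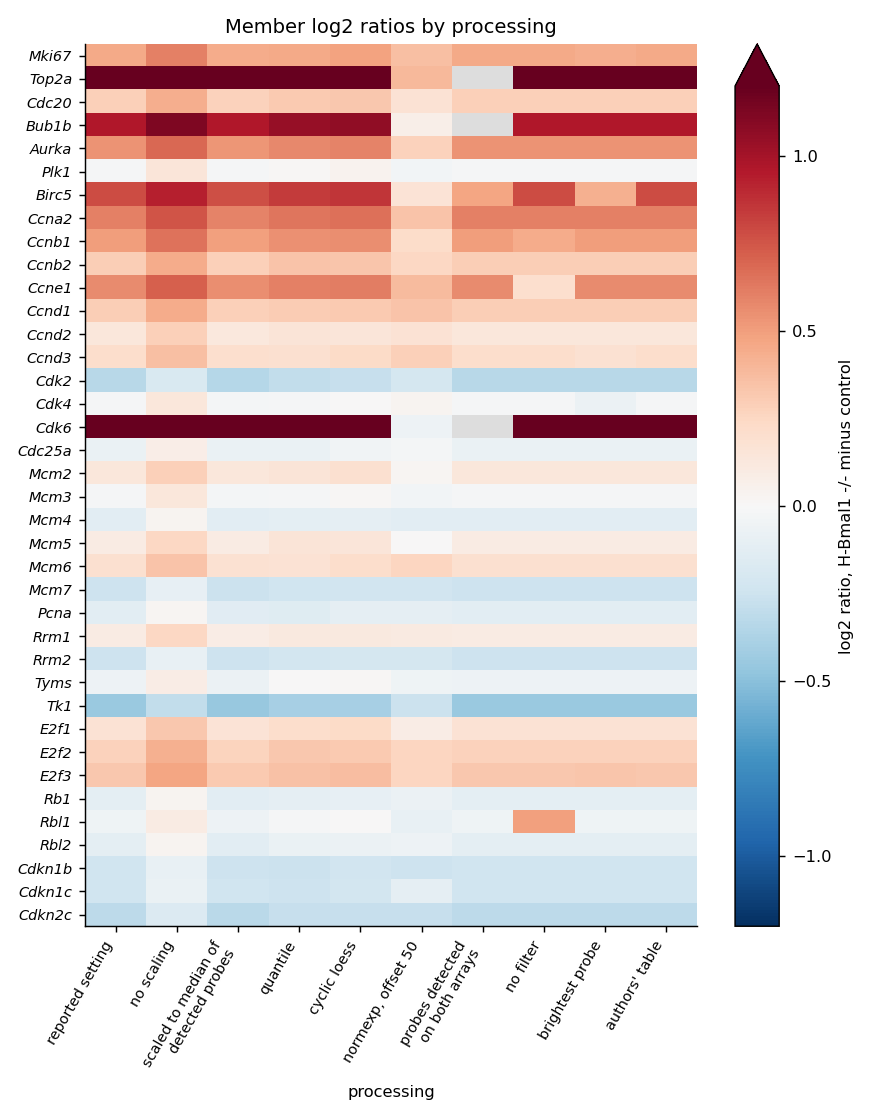
Log2 ratio of the *H-Bmal1*-/- pool minus the control pool as color for each of the 38 measured members (rows) under 10 ways of processing (columns), with no value for *Top2a*, *Bub1b* and *Cdk6* where a probe must be detected on both arrays. The cyclin rows stay above 0 and the CDK inhibitor rows below 0 throughout, and the *Top2a* row falls to 0.39 in the normexp column.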

How the data were processed

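Cy3-labeled RNA of 1 pool of 6 left ventricles per genotype was hybridized to 1 single-color array each. Per the labels, the authors extracted spots with Agilent Feature Extraction 10.5.1.1, while the file header names 10.10.1.1. The deposited intensities are the processed signal on a linear scale, after background subtraction and without scaling between arrays. The authors' value table holds the same intensity times 1 factor per array and served as an alternative.

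From the scanner values, log2 was taken and each array's 75th percentile over noncontrol spots subtracted. Spots flagged as outliers on an array were dropped from both (269 spots), and repeated spots were averaged by probe. A symbol was given to 26753 of 55676 probes through accessions in the RefSeq gene table of GRCm38.p6. A gene's value is the mean of its probes detected (well above background) on 1 or both arrays. Where the control array had none, the knockout signal was set against the higher of the control array's lowest detected probe signal (11.1 in raw signal) and the gene's own. The words "at least N-fold" are used where the lowest detected probe signal was the higher. Such a limit holds for the software's own background subtraction only and leaves out the model error. For *Top2a* and *Pole2* the gene's own was the higher, so the measured fold is given. A difference was counted at 1.5-fold (0.585 on the log2 scale), and the size of lists is described by counts and medians, with no test and no p-value, since the number of arrays limits the precision.

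The members and lists were chosen with earlier results of these data known. Named were all 43 members, *Arntl*, of each list of other cell cycle genes up to 3 highest and 3 lowest genes seen on both arrays, and of each marker list up to 2 and 2, of which only those that a result turns on are printed. Of the genes this covers, 1 is not reported here. *Wee1*, *Pole2*, *Nusap1*, *Cenpf*, *Cdc25c*, *E2f4*, *Cdkn2d*, *Cdkn3*, *Ccnf*, *Ccng1*, *Ccng2*, *Lum*, *Col1a2*, *Col3a1*, *Cd8a* and *Cd79a* were named after their values were seen. The count beyond 2 model errors was also added after the values were seen. Cell marker lists were of cardiomyocytes, fibroblasts, endothelial cells, smooth muscle and pericytes, macrophages and monocytes, and lymphocytes.

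Alternatives were no scaling, scaling to the median of detected probes, quantile normalization, cyclic loess, normexp with an offset of 50, a stricter and no filter on dim probes, each gene's brightest probe, the authors' value table, and limits of 1.3-fold and 2-fold. Normexp was run on the median signal, since the files used here hold no mean signal. Scripts used Python 3.11.15, numpy 2.4.6, pandas 2.3.3, matplotlib 3.10.9, R 4.3.3 and limma 3.58.1, and were tested on simulated data.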

Additional observations from a re-analysis of the deposited data

How the results depend on the processing

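The count of members at least 1.5-fold higher, 3 as reported, was 7 with no scaling between arrays, 5 with cyclic loess, 0 with normexp, 1 with only probes well above background on both arrays, 8 at a limit of 1.3-fold and 1 at 2-fold. Of all genes, 9.66% passed 1.5-fold on the higher side with no scaling, 7.14% with cyclic loess, 2.67% with normexp and 4.74% with the stricter filter. The share of all genes was not computed at 1.3-fold or 2-fold, so the counts there have no background. The count of members lower, 0 as reported, was 1 at 1.3-fold (*Tk1*) and 0 under the other alternatives. Over the other ways of processing, 1.79% to 5.98% of all genes passed 1.5-fold on the lower side. Without scaling, which adds 0.15 to every log2 ratio, the median of the members was 0.27, and the medians of the lists were 0.12 for origin licensing, 0.18 for the replication fork, 0.31 for the spindle, 0.21 for other CDK regulators and 0.12 for the anaphase-promoting complex, beside 0.14 over all genes. Counts over all genes were then 1337 higher and 530 lower (71.6% of them higher), against 852 and 810 as reported (51.3%). With normexp, which compresses dim signals, the median of the members was 0.028, the log2 ratio of *Cdk6* turned to -0.063 (1.24 as reported), and 369 genes were higher and 248 lower. With cyclic loess 988 genes were higher and 710 lower. Of the values of single members under the alternatives, 276 moved by less than 0.07 and 62 by more, not counting the normexp value of *Cdk6*, which changed sign. The 62 include the value of every member without scaling, which moves by 0.15 by construction. No paired analysis was possible because each genotype has 1 array, and for the same reason no array could be left out. Dim probes limit *Top2a*, *Bub1b*, *Cdk6* and *Birc5*, whose ratios rest on signals near background in the control pool.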
